A study of Homo sapiens with 9 samples.

Results

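The heat shock proteins and chaperones measured here are 67 of the 12254 genes tested in a gene expression series of 9 Affymetrix arrays of NCCIT cells. They are the genes whose symbol belongs to the HSP70 (HSPA), small heat shock protein (HSPB), HSP90, HSP60 and HSP10 (HSPD1, HSPE1), HSP110 (HSPH1), J protein (DNAJA, DNAJB, DNAJC) or CCT chaperonin (CCT and TCP1) families. For each symbol the brightest cluster of probes by its mean over the 9 arrays was taken, and it was kept if its highest value was above 7.71, the median of all values in the table (log2 scale). The rule matched 90 symbols, of which 23 were below that brightness on every array, so that the members were in part chosen by measured brightness. Just inside the threshold were HSP90B3P with a highest value of 7.86, HSPB6 with 7.88 and DNAJC12 with 7.91, and just outside it were HSP90AA4P with 7.65, DNAJC6 with 7.56 and DNAJC28 with 7.45. Of the 67 members, 61 were above the threshold on all 9 arrays, and DNAJC12, DNAJC27, HSP90B3P, HSPA6, HSPB6 and HSPB8 were above it on some arrays only. A gene that passes only where it is high is bound to differ between arrays, so counts that include these 6 are followed by the counts over the 61. Symbols found only in clusters that several genes share were not analysed here, among them the stress-inducible HSP70 genes HSPA1A and HSPA1B. Of the 67, 5 are HSP90 pseudogenes whose probes may take signal from their near-identical parent genes.

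NCCIT is an established human embryonal carcinoma line, a malignant counterpart of early embryonic cells that can differentiate into derivatives of several germ layers. One array held undifferentiated cells, and 8 arrays held embryoid bodies, aggregates grown in non-adherent dishes, at day 7 or day 21. At each day there was 1 array without additions, 1 with ethanol at 50 mM, 1 with FA and 1 with ethanol plus FA, where FA is an abbreviation that the labels do not explain. The labels' treatment text describes embryoid body culture with ethanol for 7 days only, whereas the titles give 7 and 21 days. Every condition is therefore 1 array of 1 cell line, and errors come from a linear model (limma) with terms for ethanol, FA, day and the undifferentiated state, which borrows its spread from the differences among the embryoid body arrays. The number of arrays limits the precision, and nothing in the labels says whether the arrays came from separate cultures. In these bulk samples, fewer cells of a type and less RNA per cell cannot be told apart.

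Chaperones bind proteins that are unfolded or not yet folded and keep them from aggregating. HSP70 proteins cycle on and off their clients by hydrolysing ATP, J proteins deliver clients and stimulate that hydrolysis, and HSP110 proteins and other exchange factors release the nucleotide. HSP90 acts later on signalling proteins such as kinases and steroid receptors, and the chaperonins, CCT in the cytosol and HSP60 with HSP10 in mitochondria, enclose a client in a chamber. The transcription factor HSF1 induces many of these genes after protein damage by binding heat shock elements, inverted repeats of the unit nGAAn, while chaperones of the endoplasmic reticulum are induced in the unfolded protein response through ER stress elements.

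The promoter letters through which these regulators are known to act were looked up first, to show which members carry them. The window was the 250 bases before each start site in RefSeq (build GRCh38.p14), and 57 of the 67 members had at least 1 window, 75 windows in all. A heat shock element of 3 units, GAA, TTC and GAA or TTC, GAA and TTC, each separated by NN and searched on both strands, was present in 6 of the 75 windows (8%) and in 155 of all 35116 promoters (0.441%). The shorter element of 2 units, GAA and TTC in either order separated by NN, which every 3-unit match contains, was present in 16 member windows (21.3%) and in 4067 of all promoters (11.6%). The ER stress element, CCAAT and CCACG separated by 9 bases of any kind, on either strand, was present in 2 member windows (2.67%), those of HSPA5 and HSP90B1, and in 26 of all promoters (0.074%). The stretches around the 3-unit elements of 5 members, from the stress-inducible HSPA6 to the constitutive HSPA8, are shown first, with the element in capitals and each read 5′ to 3′ on the gene's own strand. The sixth member with such an element was HSP90AB1.
HSPA6, chr1:161524436-161524508, plus strand: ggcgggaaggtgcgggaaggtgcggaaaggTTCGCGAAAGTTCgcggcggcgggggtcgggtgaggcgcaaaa
HSPA8, chr11:123062149-123062386, minus strand: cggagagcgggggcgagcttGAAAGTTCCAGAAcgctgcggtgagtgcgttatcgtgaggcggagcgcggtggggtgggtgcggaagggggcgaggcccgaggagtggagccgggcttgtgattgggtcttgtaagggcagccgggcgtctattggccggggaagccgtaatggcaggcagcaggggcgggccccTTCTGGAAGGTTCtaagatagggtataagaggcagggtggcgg
HSP90AA1, chr14:102087090-102087162, minus strand: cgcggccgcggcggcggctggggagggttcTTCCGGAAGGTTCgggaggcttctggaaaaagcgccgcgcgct
HSPD1, chr2:197500063-197500090, minus strand: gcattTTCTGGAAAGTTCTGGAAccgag
DNAJB6, chr7:157336868-157336890, plus strand: gccgaGAACCTTCGCGAAggtgg

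The 2 members with an ER stress element, the ER HSP70 and the ER HSP90, are shown in the same way, with the element in capitals. In HSP90B1 the second element lies on the opposite strand. A match of letters describes these windows and is neither a measured binding site nor a cause of any value given here.
HSPA5, chr9:125241361-125241439, minus strand: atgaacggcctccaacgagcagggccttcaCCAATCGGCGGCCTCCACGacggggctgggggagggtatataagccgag
HSP90B1, chr12:103930186-103930369, plus strand: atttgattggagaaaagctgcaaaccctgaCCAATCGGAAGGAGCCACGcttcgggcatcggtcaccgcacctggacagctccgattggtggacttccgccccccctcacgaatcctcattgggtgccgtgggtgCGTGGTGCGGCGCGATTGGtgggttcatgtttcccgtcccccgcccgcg

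The arrays were compared as a set before the members. Of 13 markers of embryonal carcinoma and pluripotent cells, 11 had a cluster of their own and all 11 were above the brightness threshold, with a mean of 11.28 on the undifferentiated array, 11.06 to 11.13 on the day 7 arrays and 9.77 to 10.06 on the day 21 arrays (log2). At day 21, 10 of these 11 were lower and 1 was higher, while of 6 measured neuron markers 4 were higher and 1 lower, and of 6 mesenchyme markers, 3 of them above the threshold, 2 were higher. Of 6 neural progenitor markers 3 were higher and 1 lower. Of 5 measured heart and muscle markers, 2 of them above the threshold, 2 were lower and 0 higher. Of 5 endoderm markers, 3 of them above the threshold, 1 was higher. Markers of ciliated cells, germ cells and blood were all below the threshold. The part of this shift in cell types in the day differences below was not tested. The day 7 ethanol array had the lowest mean correlation with the other day 7 arrays (mean r of 0.983). Each other day 7 array had a mean r of 0.989 to 0.990 with its day 7 counterparts, among them the day 7 ethanol array. For members, the 6 largest ethanol differences in each direction are given with and without that array.

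Across all members, time in culture was the factor with the most calls. Between day 7 and day 21, 32 of the 67 members (47.8%) passed an adjusted p of 0.05 (limma, Benjamini-Hochberg over all 12254 genes), 17 higher and 15 lower, against a background of 48.9% of all genes, 26.3% higher and 22.6% lower. Among the 61 members above the threshold on every array, 30 (49.2%) passed, 17 higher and 13 lower. Differences against undifferentiated cells took the fitted level of embryoid bodies without ethanol or FA, averaged over both days unless a day is named. Against the undifferentiated array, 19 members passed, 3 higher and 16 lower (4.48% and 23.9%), against a background of 28.1% of all genes, 11.0% higher and 17.2% lower. Of the 61, 17 (27.9%) passed, 2 higher and 15 lower. Taken at the level of day 7 alone, 13 members passed against undifferentiated cells, 3 higher and 10 lower (background 20.6% of all genes, 6.68% higher and 13.9% lower), and at the level of day 21, 29 passed, 9 higher and 20 lower (background 37.8%, 16.6% higher and 21.2% lower). Of the 61, 12 passed at the level of day 7, 2 higher and 10 lower, and 27 at the level of day 21, 9 higher and 18 lower. All 4 day 21 arrays were above all 4 day 7 arrays for 14 members (20.9%) and 24.6% of all genes, and below them for 15 members (22.4%) and 21.4% of all genes; of the 61, 14 were above and 14 below. The median member differed by 0.02 between the days (all genes -0.01) and by -0.11 between embryoid bodies and undifferentiated cells (all genes -0.05). When arrays were first brought to a common median, 21 members were higher and 10 lower at day 21 (21 and 9 of the 61), and the calls over all genes shifted the same way, to 31.6% higher and 17.2% lower. Counts of members and of all genes moved both ways when single arrays were left out. For day they fell to 17 members and 36.2% of all genes without the day 7 FA array. Without the day 21 ethanol array they fell to 20 members and 39.9%. Against undifferentiated cells they fell to 9 members and 17.2% without the untreated day 7 array. Without the day 7 ethanol array the counts rose, for day to 34 members and 50.6%, and they rose against undifferentiated cells as well.

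No member passed the threshold for ethanol in limma (0 of 67, background 0.685%), with 8 members (11.9%) at an unadjusted p under 0.05, where 17.5% of all genes were; 6 of the 61 were. The background itself was not stable: the 84 genes called for ethanol became 0 without the untreated day 7, day 7 FA, day 21 ethanol or combined day 21 array, 2 and 3 without the untreated day 21 and day 21 FA arrays, 129 without the combined day 7 array and 212 without the day 7 ethanol array. None passed for FA (0 of 67, background 0.00%), with 2 members (2.99%) at an unadjusted p under 0.05 and 0.987% of all genes, and 0 of the 61 were. DNAJC10, HSPA4L, HSPA6 and DNAJB4 were the 4 that spanned more than 1 log2 unit over the 9 arrays.

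Among the cytosolic HSP70 genes, HSPA6 was high at day 7 and HSPA8 was nearly level over all arrays. HSPA6 encodes a strictly stress-inducible HSP70, barely made in unstressed cells. Its log2 value was 7.55 on the undifferentiated array, 9.11, 8.97, 8.95 and 8.06 at day 7 (no addition, ethanol, FA, and ethanol with FA, the order used throughout) and 7.73, 7.85, 7.71 and 7.47 at day 21. All 4 day 7 arrays were above all day 21 arrays and above the undifferentiated array, and the day 7 array with both agents was the lowest of the day 7 arrays. The untreated and ethanol day 21 values of HSPA6 (7.73 and 7.85) lay just above the brightness threshold, and its undifferentiated value of 7.55 lay below it. Its differences are therefore given as a description, with no test. The day difference was -1.09 ± 0.15 (log2 ± standard error of the fit). In the fit, embryoid bodies without ethanol or FA stood 1.55 ± 0.26 above undifferentiated cells at the level of day 7 and 0.47 ± 0.26 above at that of day 21. The single day 7 arrays stood 1.56, 1.43, 1.40 and 0.51 above. The dim values limit the size of these differences. HSPA6 was above the brightness threshold on 6 of the 9 arrays and has a near-identical copy, HSPA7, which had no cluster of its own.

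HSPA8 encodes HSC70, the constitutive cytosolic HSP70. It read 13.56 on the undifferentiated array, 13.54, 13.54, 13.55 and 13.54 at day 7 and 13.55, 13.62, 13.57 and 13.62 at day 21. The 9 values lay within 0.08 log2 units of each other. By its mean HSPA8 was brighter than 99.96% of the genes tested, and the highest value of all was 14.3. Whether signal that bright is compressed was not tested. The difference of HSPA8 between the days was 0.05 ± 0.05 with a 95% interval of -0.06 to 0.15. Both genes carry a 3-unit heat shock element in the window shown above. The third measured member of the group, HSPA14, a ribosome-associated HSP70, passed in neither comparison (-0.01 ± 0.06 for day and -0.26 ± 0.09 against undifferentiated cells). HSPA2 and HSPA1L, both known for high expression in testis, were below the brightness threshold.

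The HSP110 exchange factors HSPA4, HSPA4L and HSPH1 moved in different directions. HSPA4L read 9.25 on the undifferentiated array, 10.42, 10.58, 10.32 and 10.91 at day 7 and 10.38, 10.72, 9.94 and 10.65 at day 21. Every embryoid body array was above the undifferentiated one, by 0.69 to 1.66. The fitted level without ethanol or FA was 1.05 ± 0.18 above it (limma adjusted p = 0.00497), and the ranges of both days overlapped. HSPA4, the close relative that most tissues express, read 11.22 on the undifferentiated array, 10.74, 10.83, 10.72 and 10.82 at day 7 and 10.61, 10.67, 10.52 and 10.60 at day 21. The undifferentiated value was above all 8 others, with a difference of -0.55 ± 0.08 (adjusted p = 0.00216), and the difference between the days was -0.18 ± 0.05 (adjusted p = 0.0128). The day call was lost without the day 7 FA array or the day 21 array with both agents (adjusted p up to 0.0588). It was lost too when arrays were centred (-0.12, adjusted p = 0.0673). HSPH1, a heat-inducible member, read 10.80 on the undifferentiated array, 10.35, 10.54, 10.41 and 10.52 at day 7 and 10.86, 10.90, 10.68 and 10.73 at day 21. All day 7 values were below all day 21 values and below the undifferentiated one, with a rise between the days of 0.34 ± 0.06 (adjusted p = 0.0022). At the day 7 level HSPH1 was below undifferentiated cells, with a difference of -0.36 ± 0.10 (adjusted p = 0.0459), and at the day 21 level the difference was -0.02 ± 0.10 (adjusted p = 0.915).

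**Figure D1:**
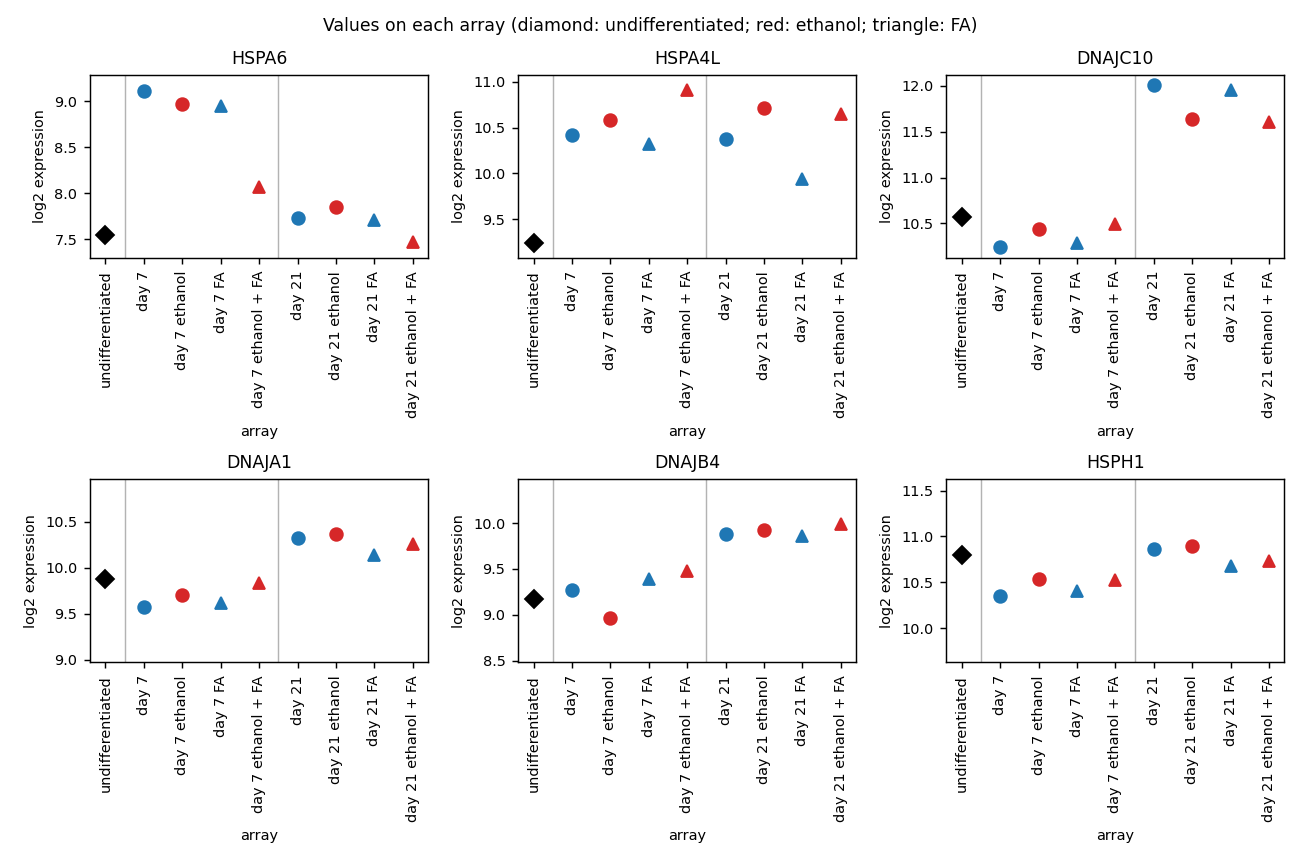
Log2 expression on each array for HSPA6, HSPA4L, DNAJC10, DNAJA1, DNAJB4 and HSPH1, 1 point per array; the diamond is the undifferentiated array, red points had ethanol and triangles had FA. HSPA6 falls between day 7 and day 21, HSPA4L is lowest undifferentiated at 9.25, and the 4 day 21 points of DNAJC10, DNAJA1, DNAJB4 and HSPH1 lie above their day 7 points.

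The HSP90 genes fell a little or did not pass. HSP90AA1, the stress-inducible cytosolic form, read 12.05 on the undifferentiated array, 12.11, 12.05, 12.16 and 12.06 at day 7 and 11.83, 11.88, 11.82 and 11.96 at day 21, a difference of -0.22 ± 0.06 between the days (adjusted p = 0.0116). HSP90B1, which encodes GRP94, the HSP90 of the endoplasmic reticulum, fell by 0.16 (standard error 0.05, adjusted p = 0.0254). Neither call held throughout. That of HSP90AA1 was lost without the day 7 FA array (adjusted p = 0.0601) and narrowly without the untreated day 7 array, and that of HSP90B1 when arrays were centred (-0.11, adjusted p = 0.128) and without any of 5 arrays. HSP90AB1, the constitutive cytosolic form, differed by -0.12 ± 0.05 between the days (adjusted p = 0.0745) and by -0.20 ± 0.08 from undifferentiated cells (adjusted p = 0.102). None of the 3 passed against undifferentiated cells in the limma fit over both days, where 1, HSP90AB1, had an unadjusted p under 0.05. The pseudogenes HSP90AA2P (-0.37 ± 0.08 for day) and HSP90AB2P (-0.41 ± 0.10 against undifferentiated cells) passed, and their probes may read the parent genes.

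The CCT chaperonin, a ring of 8 different subunits that folds actin and tubulin, was lower in embryoid bodies than in undifferentiated cells. Of its 8 measured subunits 7 passed, all lower, with a median of -0.35 over the 8, beside -0.05 over all genes, of which 17.2% were lower and 11.0% higher. CCT7 had the largest difference at -0.50 ± 0.09, followed by CCT3 at -0.47, CCT5 at -0.45, CCT4 at -0.38, CCT2 at -0.33, CCT6A at -0.32 and TCP1 at -0.30 (log2, limma adjusted p = 0.00561 to 0.0448). CCT8 was the subunit that missed, at -0.11 ± 0.09 (adjusted p = 0.406). The subunits did not share a direction between the days. TCP1, the alpha subunit, read 12.95 on the undifferentiated array, 12.84, 12.91, 12.81 and 12.82 at day 7 and 12.43, 12.46, 12.36 and 12.37 at day 21. Its day 21 values were all below its day 7 values, a fall of 0.44 (standard error 0.04, adjusted p = 0.000121), and at the day 7 level it differed from undifferentiated cells by -0.08 ± 0.08 (adjusted p = 0.531). CCT5 fell between the days by 0.24 (adjusted p = 0.00731), whereas CCT4 rose by 0.18 (adjusted p = 0.0142) and CCT7 by 0.16 (adjusted p = 0.045).

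CCT7 read 12.15 on the undifferentiated array, 11.56, 11.72, 11.58 and 11.61 at day 7 and 11.67, 11.80, 11.82 and 11.80 at day 21. The undifferentiated array was above all 8 embryoid body arrays. The same placing, the undifferentiated array highest, held for 27 of the 67 members (40.3%) and for 26.9% of all genes, and the reverse for 7 members (10.4%) and 14.6% of all genes; of the 61, 26 and 7 were so placed. Without the untreated day 7 array 4 of the 8 subunits passed, and the calls lost were those of CCT2, CCT6A and TCP1 (adjusted p = 0.0594, 0.114 and 0.077). The call of CCT6A was lost without any of 5 of the 8 embryoid body arrays and that of TCP1 also without the day 7 FA array. The rise of CCT7 between the days was lost without any of 7 arrays, and that of CCT4 without the day 21 ethanol array (adjusted p = 0.0646).

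**Figure D2:**
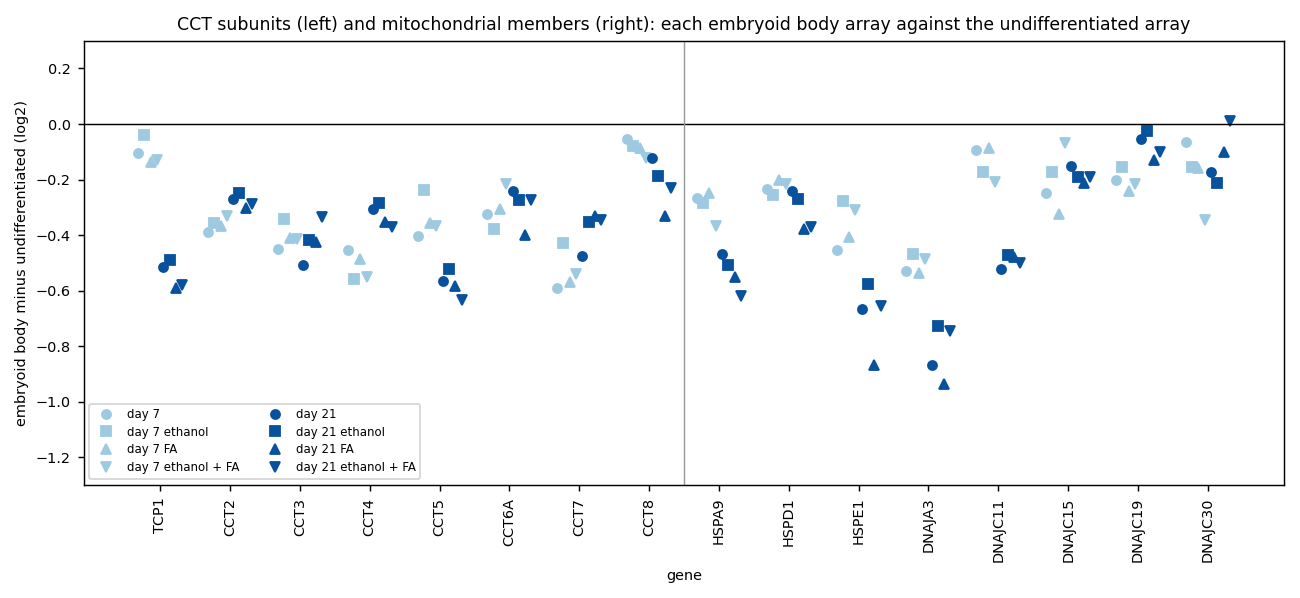
Log2 difference of each embryoid body array from the undifferentiated array, 8 points per gene, for the 8 CCT subunits on the left and the 8 mitochondrial members on the right; light points are day 7 and dark points day 21. Most points lie below 0, TCP1 is further below at day 21 than at day 7, and DNAJA3 lies lowest among the mitochondrial members.

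The mitochondrial members were also on the low side of undifferentiated cells: all 8 had a difference below 0 (median -0.27), and DNAJA3, HSPE1, HSPA9 and DNAJC11 passed, beside a median of -0.05 and 17.2% lower over all genes. DNAJA3, the mitochondrial J protein TID1, read 10.14 on the undifferentiated array, 9.61, 9.68, 9.61 and 9.66 at day 7 and 9.28, 9.42, 9.21 and 9.40 at day 21. The 3 stages did not overlap, with -0.70 ± 0.08 against undifferentiated cells (adjusted p = 0.00135) and -0.31 ± 0.05 between the days (adjusted p = 0.00116). HSPE1, the HSP10 lid of the mitochondrial chaperonin, read 9.91 on the undifferentiated array, 9.45, 9.63, 9.50 and 9.60 at day 7 and 9.24, 9.33, 9.04 and 9.25 at day 21. It too was ordered by stage, with -0.57 ± 0.09 against undifferentiated cells (adjusted p = 0.00379) and -0.33 ± 0.05 between the days (adjusted p = 0.00153). HSPD1, the HSP60 that forms the chamber with it, passed in neither comparison, with -0.24 ± 0.09 against undifferentiated cells (adjusted p = 0.0678) and -0.09 ± 0.05 between the days (adjusted p = 0.189). HSPD1 and HSPE1 are known to share 1 bidirectional promoter; whether their differences differ from each other was not tested. HSPA9, the mitochondrial HSP70 mortalin, read 12.36 on the undifferentiated array, 12.09, 12.08, 12.11 and 11.996 at day 7 and 11.89, 11.86, 11.81 and 11.74 at day 21. Its undifferentiated value was the highest and its day 21 values were all below its day 7 values, with -0.35 ± 0.08 against undifferentiated cells (adjusted p = 0.0139) and -0.24 ± 0.05 between the days (adjusted p = 0.00358). DNAJC11, a J protein of the mitochondrial membranes, fell by 0.35 between the days, and DNAJC19, of the import motor, rose by 0.13 (adjusted p = 0.000713 and 0.0459); the latter call was lost without any of 7 arrays. Without the untreated day 7 array, 2 of the 8 passed against undifferentiated cells, and HSPA9 was among those lost (adjusted p = 0.0579). The call of DNAJC11 against undifferentiated cells (-0.29, adjusted p = 0.0319) was lost without any of 6 arrays.

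The members of the endoplasmic reticulum moved both ways between the days: 6 of 12 were higher and 2 lower at day 21 (median 0.19), beside 26.3% higher, 22.6% lower and a median of -0.01 over all genes. The 2 that fell were the luminal chaperones with an ER stress element in the windows above, HSPA5 and HSP90B1. HSPA5 encodes BiP, the ER HSP70, and read 12.40 on the undifferentiated array, 12.54, 12.54, 12.51 and 12.52 at day 7 and 12.23, 12.31, 12.10 and 12.16 at day 21. All day 21 values were below all day 7 values, a difference of -0.33 ± 0.05 (adjusted p = 0.00104). HSP90B1 read 12.73 on the undifferentiated array, 12.93, 12.85, 12.91 and 12.94 at day 7 and 12.79, 12.73, 12.71 and 12.75 at day 21. Its day 21 values were all below its day 7 values. The 6 that rose were 5 J proteins, DNAJC10, DNAJC18, DNAJC1, DNAJB9 and DNAJC3, and the HSP70 relative HSPA13.

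DNAJC10 encodes ERdj5, a J protein with disulfide reductase activity that helps remove misfolded proteins from the ER, and had the largest day difference of all members. It read 10.57 on the undifferentiated array, 10.24, 10.43, 10.28 and 10.50 at day 7 and 12.002, 11.63, 11.96 and 11.61 at day 21. The 4 day 21 arrays were above every other array, and the fitted rise was 1.44 ± 0.11 (adjusted p = 2.57e-05), with 1.76, 1.20, 1.68 and 1.11 in the 4 matched pairs. The 2 pairs with ethanol showed the smaller rises. DNAJC18, a membrane J protein of the ER, read 9.80 on the undifferentiated array, 9.66, 9.38, 9.63 and 9.49 at day 7 and 10.12, 9.96, 10.12 and 9.86 at day 21. Its days did not overlap either, with a rise of 0.47 ± 0.05 (adjusted p = 0.000174). The smaller rises were 0.33 for DNAJC1 (adjusted p = 0.00281), 0.31 for HSPA13 (adjusted p = 0.0122), 0.27 for DNAJB9, the ERdj4 induced in the unfolded protein response (adjusted p = 0.0272), and 0.22 for DNAJC3, the inhibitor P58IPK of a stress kinase (adjusted p = 0.0278). Without the day 7 FA array 3 of the 12 were higher and 1 lower; the calls of DNAJB9, DNAJC3 and HSPA13 were lost there (adjusted p = 0.0986, 0.0761 and 0.0525). The call of DNAJB9 was lost without any of 6 of the 9 arrays (adjusted p up to 0.0989) and that of DNAJC3 without any of 5 (adjusted p up to 0.0961), while that of HSPA13 was lost without the day 7 FA array alone. Without the untreated day 7 array, or without the day 21 ethanol array, 5 of the 12 passed in each case, 4 higher and 1 lower. In the limma fit averaged over both days none of the 12 passed against undifferentiated cells, and 3 had an unadjusted p under 0.05. There DNAJC10 was at 0.54 ± 0.18 (unadjusted p = 0.0183, adjusted p = 0.0596). That mean joins unlike levels. DNAJC10 differed from undifferentiated cells by -0.18 at the level of day 7 and by 1.26, past the threshold, at that of day 21.

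**Figure D3:**
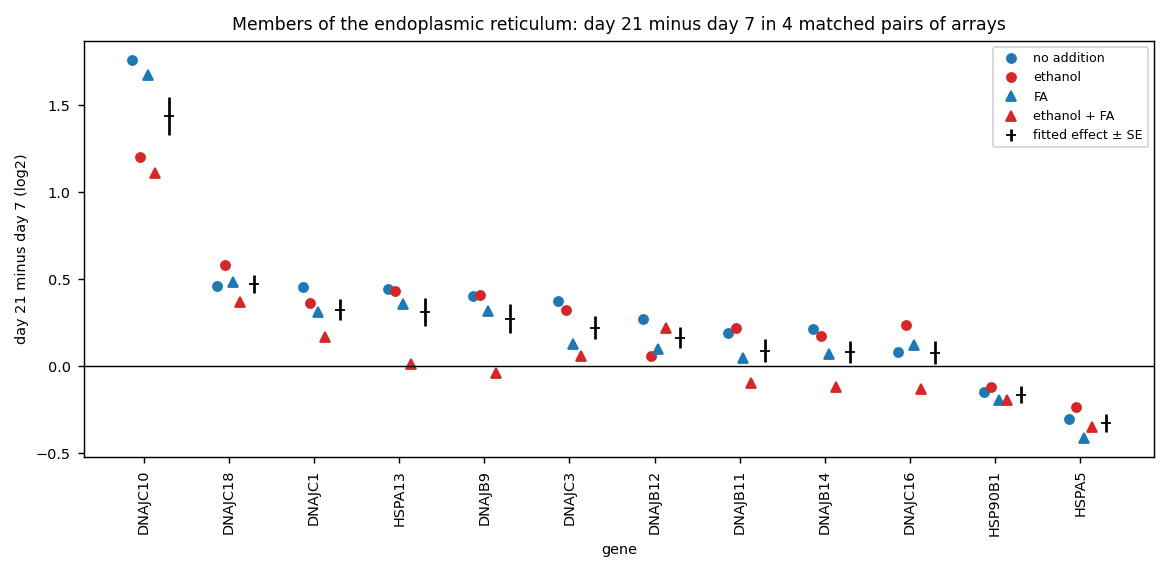
Day 21 minus day 7 (log2) for the 12 members of the endoplasmic reticulum, 4 coloured points per gene for the matched pairs of arrays and a black bar for the fitted difference ± its standard error. DNAJC10 stands at 1.76, 1.20, 1.68 and 1.11, and all 4 points of HSPA5 and of HSP90B1 lie below 0.

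Few small heat shock proteins were bright enough to test. HSPB1, the actin-associated HSP27, read 11.42 on the undifferentiated array, 11.47, 11.56, 11.51 and 11.41 at day 7 and 11.71, 11.74, 11.83 and 11.79 at day 21, a rise of 0.28 ± 0.06 between the days (adjusted p = 0.00424). Its days did not overlap. HSPB6, known from muscle, was dim, above the threshold on 2 arrays only, and its differences of -0.23 ± 0.08 between the days and -0.50 ± 0.13 against undifferentiated cells lie close to that floor and are given with no test. HSPB8, a partner of BAG3 in selective autophagy, passed in neither comparison (-0.01 ± 0.08 and -0.39 ± 0.13). HSPB3, HSPB7 and HSPB9 were below the threshold.

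Among the cytosolic J proteins, the rises at day 21 were led by DNAJB4 and DNAJA1. DNAJB4, a heat-inducible partner of HSP70 also called HLJ1, read 9.17 on the undifferentiated array, 9.27, 8.97, 9.39 and 9.48 at day 7 and 9.88, 9.93, 9.86 and 9.99 at day 21. DNAJA1, the main farnesylated J protein of the cytosol, read 9.88 on the undifferentiated array, 9.57, 9.70, 9.62 and 9.83 at day 7 and 10.32, 10.37, 10.14 and 10.26 at day 21. In both genes the day 21 arrays were above all other arrays, with rises of 0.64 ± 0.09 and 0.59 ± 0.06 (adjusted p = 0.000791 and 0.000165). DNAJB1, HSP40, the classical partner of inducible HSP70, rose by 0.21 ± 0.07 (adjusted p = 0.038), a call lost without any of 6 arrays. DNAJA2 was lower than in undifferentiated cells by 0.47 and rose by 0.20 between the days (adjusted p = 0.0141 and 0.0346), the latter a call lost without any of 6 arrays. DNAJB6, which suppresses aggregation of polyglutamine proteins, was lower in both comparisons (-0.35 ± 0.10 and -0.23 ± 0.06, adjusted p = 0.0364 and 0.0151), and a dimmer second cluster of the gene gave -0.50 between the days, while the call between the days was lost when arrays were centred (adjusted p = 0.0622) and without any of 3 arrays. DNAJB2, a J protein enriched in neurons, was the third member above undifferentiated cells, at 0.36 ± 0.09 (adjusted p = 0.0198). DNAJC5, the synaptic vesicle J protein CSP alpha, rose by 0.22 ± 0.06 between the days (adjusted p = 0.0167), a call lost without any of 4 arrays. Of the 22 DNAJC genes tested, 7 were higher and 1 lower at day 21, where 26.3% and 22.6% of all genes were, and 4 or 5 passed in all without the day 7 FA, day 21 ethanol, untreated day 7 or untreated day 21 array. Against undifferentiated cells, DNAJC11 was the 1 DNAJC gene that passed, and the calls of DNAJA2, DNAJB2 and DNAJB6 were lost without the untreated day 7 array (adjusted p = 0.0548, 0.0695 and 0.111). That of DNAJB6 was lost without any of 5 of the 8 embryoid body arrays, and that of DNAJB2 also without the untreated day 21 array.

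The genes that HSF1 is known to induce were called in both directions. Of 12 tested, 5 were higher at day 21 (HSPH1, HSPB1, DNAJA1, DNAJB1 and DNAJB4) and 3 lower (HSPA6, HSP90AA1 and HSPE1), and against undifferentiated cells 2 were higher (HSPA6 and HSPA4L) and 1 lower (HSPE1). Over all genes 26.3% were higher and 22.6% lower at day 21, and 11.0% higher and 17.2% lower than in undifferentiated cells. Without HSPA6, which was above the brightness threshold on some arrays only, the counts over the other 11 were 5 higher and 2 lower for day and 1 higher and 1 lower against undifferentiated cells. Without the day 7 ethanol array 5 of the 12 passed against undifferentiated cells, 3 higher and 2 lower. HSF1 itself, the regulator, read 9.34 on the undifferentiated array, 9.28, 9.35, 9.31 and 9.26 at day 7 and 9.42, 9.37, 9.40 and 9.48 at day 21, and passed in neither comparison (0.12 ± 0.05 for day, adjusted p = 0.0897). Of 4 HSF genes and regulators tested, HSBP1, a small protein that binds HSF1, rose between the days by 0.38 ± 0.05 (adjusted p = 0.000316) and was the 1 that passed.

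Genes of the same pathways that are no members were read from lists of partners, whose counts stand beside 11.0% higher and 17.2% lower over all genes against undifferentiated cells, and 26.3% higher and 22.6% lower at day 21. Of 22 cochaperones of HSP70 and HSP90, 9 were lower and 1 higher than in undifferentiated cells (median -0.31), and 6 were higher and 2 lower at day 21. CDC37, which loads kinases onto HSP90, was lower by 0.50 (standard error 0.09, adjusted p = 0.00506). The 1 that was higher, AHSA2P, is by its symbol a pseudogene related to the HSP90 activator AHA1 (1.17 ± 0.11, adjusted p = 0.000745). It read 7.97 on the undifferentiated array and 8.96 to 9.34 on the embryoid body arrays, so the groups did not overlap. Between the days 3 of the 22 passed when either the day 7 FA or the untreated day 21 array was left out, 4 without the day 21 ethanol array, and 5 without the day 21 FA array or the day 21 array with both agents.

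Of 6 prefoldin subunits, which hand actin and tubulin to CCT, 1 passed against undifferentiated cells, PFDN6 at -0.45 ± 0.08 (adjusted p = 0.00507). Between the days PFDN5 and PFDN1 rose by 0.35 and 0.31 while PFDN6 fell by 0.16. The day call of PFDN6 was lost without any of 5 arrays and when arrays were centred (adjusted p = 0.111). Of 11 mitochondrial partners, 6 were lower than in undifferentiated cells and none higher (median -0.33), and 6 were lower and 1 higher at day 21 (median -0.20). TRAP1, the mitochondrial HSP90, was lower than in undifferentiated cells by 0.58 (adjusted p = 0.00352), GRPEL2, an exchange factor of HSPA9, by 0.53 (adjusted p = 0.0062), and the protease LONP1 fell by 0.56 between the days (adjusted p = 0.000405). Of 14 ER partners, 6 were lower than in undifferentiated cells and none higher (median -0.20), among them XBP1, the transcription factor of the unfolded protein response, at -0.51 ± 0.10 (adjusted p = 0.00841), and CRELD2 at -0.41 (adjusted p = 0.0107). Between the days 2 rose, with HERPUD1, which serves ER-associated degradation, at 0.51 ± 0.08 (adjusted p = 0.00105), and 3 fell. Without the untreated day 7 array 3 of these 14 passed against undifferentiated cells.

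Ethanol at 50 mM, whose effect on embryoid bodies the series is about, moved no member past the threshold. The 95% interval of the ethanol difference lay inside 1.5-fold in either direction for 65 of the 67 members, and the fitted differences ran from -0.28 (HSPA6) to 0.45 (HSPA4L), with a median of 0.03 beside 0.02 for all genes. HSPA8 differed by 0.03 ± 0.05 with a 95% interval of -0.08 to 0.13, DNAJB1 by 0.02 ± 0.07 (-0.15 to 0.18) and HSP90AA1 by 0.00 ± 0.06 (-0.12 to 0.13). The 2 exceptions were HSPA6 and HSPA4L. For HSPA6 the interval was -0.64 to 0.07, wide enough to hold a change of more than 1.5-fold. HSPA4L had the largest positive difference, 0.45 ± 0.11 (limma unadjusted p = 0.0033, adjusted p = 0.108), and was higher with ethanol in 4 of 4 pairs, by 0.17, 0.58, 0.34 and 0.71 in the order day 7, day 7 with FA, day 21, day 21 with FA. Without the day 7 ethanol array, which stands apart from the other day 7 arrays, it passed (0.57, adjusted p = 0.025), while the genes called over the whole table rose from 84 to 212. That was 1 of 17 alternatives in which HSPA4L passed, and its adjusted p without any other single array went up to 0.348. DNAJC18 was lower with ethanol in 4 of 4 pairs, with a difference of -0.21 ± 0.05 (adjusted p = 0.114). The dimmer second cluster of DNAJB6, not used in the fit, was higher with ethanol in 4 of 4 pairs. It read 10.79, 10.85, 10.23 and 10.19 with ethanol and 10.37, 10.42, 10.005 and 9.99 without, in the same order. The cluster used read 11.26, 11.44, 11.16 and 11.04 with ethanol and 11.23, 11.26, 11.09 and 10.98 without. Averaging all clusters of a gene also gave 0 members past the threshold for ethanol. Of all members 17 (25.4%) were higher in all 4 pairs and 6 (8.96%) lower in all 4, against 18.5% and 11.0% of all genes; of the 61 the counts were 16 and 6.

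The other members with the largest ethanol differences were HSPA14 (0.20 ± 0.06), HSPB8 (0.19 ± 0.08), DNAJC12 (0.18 ± 0.05), DNAJB12 (0.17 ± 0.06) and CCT8L2 (0.17 ± 0.07) upward, and HSP90AB3P (-0.20 ± 0.10), DNAJC17 (-0.16 ± 0.05), DNAJC13 (-0.15 ± 0.07) and DNAJC27 (-0.14 ± 0.11) downward. None passed (limma adjusted p = 0.15 to 0.346 for those above the brightness threshold on every array). HSPB8, DNAJC12 and DNAJC27 were above it on some arrays only, so their differences are given as a description, with no test. DNAJC12 read 7.72, 7.81, 7.91 and 7.81 with ethanol and 7.58, 7.59, 7.77 and 7.63 without, in the pair order above. It thus cleared the threshold mostly where ethanol was present. Without the day 7 ethanol array the differences were 0.17 for HSPA14, 0.21 for HSPB8, 0.21 for DNAJC12, 0.13 for DNAJB12, 0.09 for CCT8L2, -0.08 for HSP90AB3P, -0.13 for DNAJC17, -0.07 for DNAJC13 and -0.02 for DNAJC27. In the same repeat HSPA6 was at -0.36 and DNAJC18 at -0.18. Some of these sizes were not stable over the alternatives: HSP90AB3P ran from -0.28 to -0.08, DNAJC13 from -0.20 to -0.07, DNAJC27 from -0.25 to -0.02, HSPA6 from -0.43 to -0.09, CCT8L2 from 0.09 to 0.24 and HSPB8 from 0.12 to 0.27. In the day 7 pair without FA, which includes the day 7 ethanol array and was not tested on its own, the largest differences were DNAJB12 at 0.36, CCT8L2 at 0.35, HSPB6 at 0.34, HSPA14 at 0.31 and HSPB8 at 0.24, and HSP90AB3P at -0.52, DNAJC27 at -0.39, DNAJC13 at -0.37, DNAJB4 at -0.30 and DNAJC17 at -0.29. All of these were under 1.5-fold, a size that 0 of the 67 members reached in that pair, while 0.539% of all genes did upward and 2.28% downward. The 1 gene of the partner lists that passed for ethanol was BAG2, an inhibitory cochaperone of the ubiquitin ligase CHIP, singled out after its values were seen. BAG2 read 9.31 on the undifferentiated array, 8.57, 9.13, 8.51 and 8.99 at day 7 and 9.17, 9.55, 9.11 and 9.35 at day 21. It was higher with ethanol in 4 of 4 pairs, by 0.41 ± 0.06 (adjusted p = 0.0387). The call was lost without any of 7 single arrays, with Benjamini-Hochberg adjusted p up to 0.181 without the day 7 FA array; it was lost too without the brightness filter (adjusted p = 0.0505) and without the terms for FA and day (adjusted p = 0.982).

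**Figure D4:**
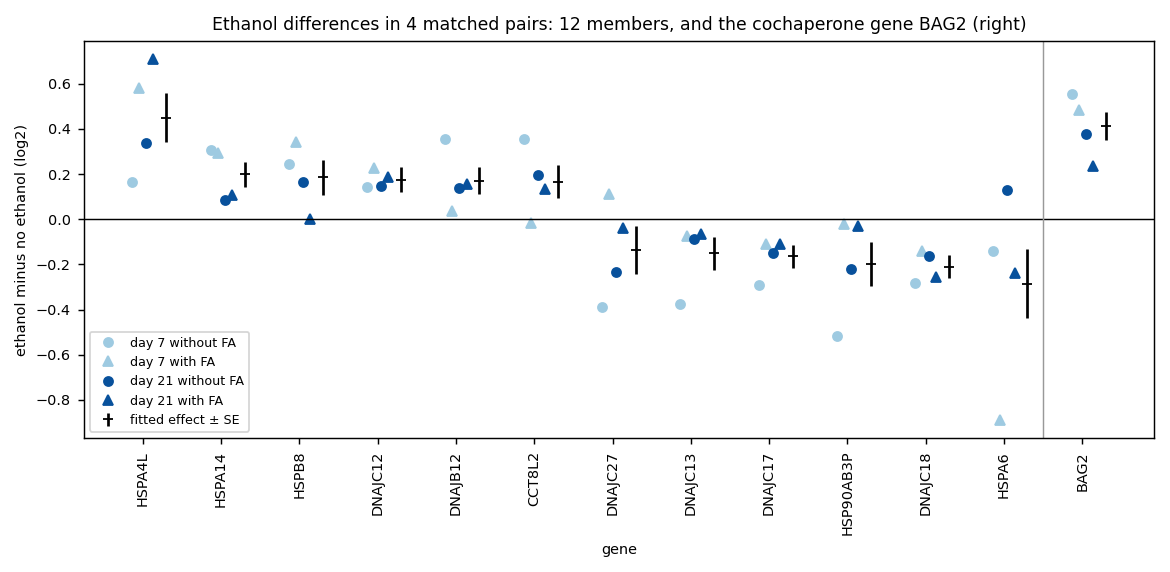
Ethanol minus no ethanol (log2) in the 4 matched pairs for the 12 members with the largest fitted differences and, right of the line, BAG2; black bars are the fitted difference ± its standard error. HSPA4L and BAG2 lie above 0 in 4 of 4 pairs, and HSPA6 ranges from -0.89 to 0.13.

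The ethanol difference was also compared between the days and with and without FA. No member passed for ethanol by day in limma (0 of 67, background 0.00816%), with 2 members (2.99%) at an unadjusted p under 0.05 and 7.48% of all genes. DNAJC10 came closest: its ethanol difference was 0.19 and 0.22 in the day 7 pairs, and -0.37 and -0.35 in the day 21 pairs. The difference of differences was -0.56 ± 0.09 (unadjusted p = 0.000723, adjusted p = 0.221). It passed without the day 7 ethanol array (-0.60, adjusted p = 0.0176) and without the day 7 array with both agents (-0.53, adjusted p = 0.0132), where the calls over all genes rose from 1 to 329 and 1112. In the other 13 alternatives it did not pass (adjusted p up to 1.0). Opposite directions in the pairs of both days were seen for 10 members (14.9%) and 10.3% of all genes, DNAJB1, HSP90AA1 and HSP90AB1 among them with small values, and all 10 were among the 61.

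For ethanol by FA no member passed (0 of 67, background 0.00%), nor at an unadjusted p under 0.05 in limma, where 0.816% of all genes were. For FA by day none passed either (background 0.00%), with 6 members (8.96%) at an unadjusted p under 0.05 and 12.2% of all genes; 5 of the 61 were. FA alone gave differences from -0.37 (HSPA6) to 0.18 (HSP90B3P), none past the threshold, and the 95% interval lay inside 1.5-fold for 66 of the 67 members. Both ends are members above the brightness threshold on some arrays only. HSP90B3P was above it only on the day 7 FA array and the day 7 array with both agents (7.75 and 7.86). Its FA difference is therefore given as a description, with no test. The FA differences of HSPA6 in the 4 pairs were -0.16, -0.91, -0.01 and -0.38, so that the pair at day 7 with ethanol carried most of its fitted value of -0.37 ± 0.15 (unadjusted p = 0.0427, adjusted p = 1). The other negative differences among the 6 largest were HSPA14 (-0.10), DNAJB1 (-0.09), CCT8 (-0.08), HSPA5 (-0.08) and HSPH1 (-0.08), and the other positive ones were DNAJB4 (0.17), HSP90AB3P (0.12), HSPA12B (0.08), HSPB8 (0.07) and DNAJC27 (0.05). Over the alternatives HSP90AB3P ran from 0.0008 to 0.20, DNAJB4 from 0.06 to 0.24 and DNAJB1 from -0.14 to -0.02, and DNAJC27 and HSPB8 turned sign. With FA 8 members (11.9%) were lower in all 4 pairs, CCT8, DNAJA3, DNAJC19, HSPA14, HSPA4, HSPA5, HSPA6 and TCP1, against 4.54% of all genes (7 of the 61), and 0 members were higher in all 4, against 2.26%.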

How the data were processed

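Total RNA of NCCIT cells was hybridised to 9 Affymetrix arrays, 1 per condition. The authors deposited log2 values; the submitters' processing notes name RMA and the program Affymetrix Expression Console 1.3.1. The log base was inferred from the values (2.49 to 14.3), and the build behind the probe clusters was not given in the sources used here. Clusters were named from the platform annotation: 19460 had 1 symbol, 1754 several and 12083 none. The brightest single-symbol cluster of each of 18417 genes was taken, and genes with a highest value above 7.71 were tested (12254). limma 3.58.1 (R 4.3.3) fitted terms for ethanol, FA, day and the undifferentiated state to the 9 arrays (4 residual and 3.94 prior degrees of freedom), with the interactions added one at a time (3 residual degrees of freedom). The undifferentiated array is assumed to vary like the others. P-values were adjusted by Benjamini-Hochberg over all 12254 genes, with a threshold of 0.05. The fit was tested on simulated data. The members and gene lists were chosen with earlier results of these data known. Named are the members with the 12 largest called differences in each direction for day and differentiation, the 6 largest for ethanol and FA, the 5 largest of the untreated day 7 ethanol pair, the core chaperones and HSF1 targets, the 3 members on each side of the brightness threshold, and up to 3 genes of each partner list; a few further members are named to complete a group. Alternatives were another centring, filter, cluster summary and variance model, leaving out each array, fewer covariates and, chosen after seeing the data, the matched pairs as blocks. Promoter sequences are from RefSeq (GRCh38.p14).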

Additional observations from a re-analysis of the deposited data

How the results depend on the processing

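The labels carry no replicate numbers. With each matched pair of embryoid body arrays as a block, an alternative chosen after seeing the data, 0 members passed for ethanol, 0 for FA and 29 for day (14 higher and 15 lower), beside 126, 0 and 5585 of all genes. With the level of day 21 alone, 29 members passed against undifferentiated cells, in place of 19. Leaving out each array in turn gave 17 to 34 members for day, 9 to 28 against undifferentiated cells, 0 to 1 for ethanol, 0 to 3 for ethanol by day, and 0 each time for FA, ethanol by FA and FA by day; the lowest counts came without the day 7 FA array for day and without the untreated day 7 array against undifferentiated cells. For ethanol by day the arrays concerned were the day 7 ethanol array (2 members) and the day 7 array with both agents (3 members). Without the brightness filter 30 of the 90 matched symbols passed for day and 18 against undifferentiated cells. Of the differences recomputed, 48 for day, 37 against undifferentiated cells, 16 for ethanol and 12 for FA, 2 in each comparison turned sign, none of them past the threshold in the fit reported. Leaving out each array gave, for FA, -0.061 to 0.127 for DNAJC27, negative without the day 7 ethanol array and without the day 7 array with both agents, and -0.0033 to 0.147 for HSPB8, negative without the latter; for ethanol, -0.0388 to 0.0790 for DNAJB1 and -0.0290 to 0.0329 for HSP90AA1; and for day, -0.0400 to 0.0160 for HSPA14 and -0.0568 to 0.0689 for HSPB8. Centred arrays gave 0.0429 and 0.0441 for the last 2 and -0.0019 for HSP90AA1 with ethanol. Against undifferentiated cells CCT8L2 was at -0.00604 at the level of day 21 and DNAJC10 at -0.177 at that of day 7. In all, 89 repeats for day and 41 against undifferentiated cells lost a call. The cause was not tested. Without the undifferentiated array there is no value against it. Values close to the brightness threshold, as for HSPB6 and HSPA6, are limited by signal over background.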

Other observations

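From a list of 10 genes known for expression in testis, those with a cluster of their own were all below the brightness threshold and so are not members. Among them were HSPA2, HSPA1L, HSPB9, DNAJB13 and CCT6B. That threshold is the median of all values, not a limit of detection. The neuron-linked DNAJC6, which uncoats clathrin vesicles, was just below it with a highest value of 7.56, whereas DNAJC5 was above it on every array. The divergent HSP70 gene HSPA12B passed in neither comparison in limma: it differed by -0.09 ± 0.05 between the days and by -0.11 ± 0.08 from undifferentiated cells (adjusted p = 0.178 and 0.385). DNAJB5 differed by -0.18 ± 0.05 between the days and by -0.25 ± 0.09 from undifferentiated cells (adjusted p = 0.0226 and 0.0721). DNAJC8 differed by 0.19 ± 0.06 between the days and by -0.12 ± 0.10 from undifferentiated cells (adjusted p = 0.0374 and 0.447). Both day calls were lost without single arrays, without any of 3 for DNAJB5 and any of 6 for DNAJC8. That of DNAJB5 was lost too when arrays were centred (adjusted p = 0.0962). CCT8L2, a copy of CCT8 outside the ring, had -0.13 ± 0.07 for day and 0.06 ± 0.12 against undifferentiated cells, neither past the threshold (adjusted p = 0.174 and 0.788). These members were chosen after their values were seen.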
